A study of Mus musculus with 3 samples.

Results

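The genes described here are 9 components of the Hedgehog pathway, Shh, Ihh, Ptch1, Smo, Sufu, Gli1, Gli2, Gli3 and Hhip, and all 9 were found by symbol among the 21782 genes of the RNA-seq count table. The cells were mouse embryonic fibroblasts (MEFs), cultured fibroblasts from E12.5 embryos, of WT genotype, grown asynchronously in medium with 20% fetal bovine serum (FBS) and given no treatment that the labels mention. RNA was sequenced from 3 clones, with 1 library per clone (clones 1, 2 and 3), and whether the clones came from separate embryos is not given in the sources used here. All libraries were of 1 condition, so the values answer which parts of the pathway were transcribed and how much the clones differed, and no library with an added ligand or agonist was analysed here.

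In the Hedgehog pathway, a secreted ligand (Sonic, Indian or Desert hedgehog) binds the receptor PTCH1, which otherwise keeps the membrane protein SMO inactive. Active SMO, acting in the primary cilium, frees the GLI transcription factors from their inhibitor SUFU, and without ligand GLI3 and part of GLI2 are instead processed into repressors. Gli1, Ptch1 and Hhip are themselves targets of the pathway, so that their transcripts are widely read as a sign of its activity, and in embryonic mesenchyme the ligand usually comes from neighbouring epithelium, cartilage or nervous tissue.

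The deposited values were read counts per gene, and library totals ran from 22594316 to 25261357 counts. Levels are given in CPM, that is counts for every 1000000 counts of the library, after TMM scaling, which adjusts library sizes for differences in composition, and 3 counts, the most that a count of 0 allows, correspond to 0.119 to 0.133 CPM. Of the 7 fibroblast markers, none was below 1 CPM in any clone, and the median of their mean levels was 2154 CPM. The lowest of them, Pdgfra, was at 11.8, 27.3 and 16.8 CPM in clones 1, 2 and 3. By contrast, 0 of 4 epithelial, 1 of 4 endothelial and 2 of 6 neural markers reached 1 CPM in every clone. The endothelial marker was Kdr, with a mean of 9.49 CPM. The neural markers were Tubb3, with a mean of 73.1 CPM and above Pdgfra in every clone, and Map2, with a mean of 6.42 CPM. Of 6 cartilage markers, 4 reached 1 CPM in every clone, and the summed level of the 6 was 827, 562 and 801 CPM in clones 1, 2 and 3. The libraries also differed in other markers. The summed level of 8 macrophage genes was 286, 1278 and 232 CPM in clones 1, 2 and 3, and that of 6 proliferation genes was 368, 723 and 609 CPM. In bulk RNA, fewer cells of a type and less RNA per cell cannot be told apart.

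The pathway genes ranged from the counting limit to the upper part of the expressed genes. The signal transducer and the regulators downstream of it (Smo, Gli3, Sufu and Gli2) had the highest levels in every clone. The target genes Ptch1, Hhip and Gli1 stood lower but above 3 counts in every clone, and the ligands Shh and Ihh were at or near the counting limit. On GRCm38 (GENCODE M21) the ligand genes are Shh on chromosome 5 from 28456815 to 28467256 (minus strand) and Ihh on chromosome 1 from 74945315 to 74951672 (minus strand). The membrane proteins are encoded by Ptch1 on chromosome 13 from 63508328 to 63573598 (minus strand), Smo on chromosome 6 from 29735503 to 29761365 (plus strand) and Hhip on chromosome 8 from 79965851 to 80058006 (minus strand). The GLI inhibitor and the GLI proteins are encoded by Sufu on chromosome 19 from 46396896 to 46488804 (plus strand), Gli1 on chromosome 10 from 127329882 to 127341974 (minus strand), Gli2 on chromosome 1 from 118834132 to 119053619 (minus strand) and Gli3 on chromosome 13 from 15463235 to 15730026 (plus strand). Of the 9 genes, 5 reached 1 CPM in every clone, a level that 52.2% of all listed genes reached. Together the 9 genes took 229 ± 3.25 CPM (SD, n = 3 clones), and 53.7% ± 2.30 of this came from Smo.

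**Figure D1:**
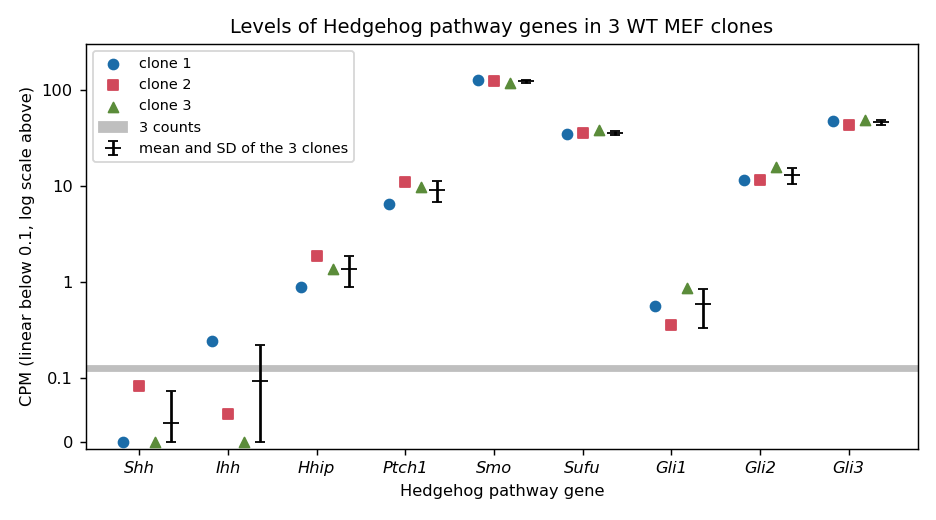
CPM of the 9 Hedgehog pathway genes in each of the 3 WT MEF clones, on an axis that is linear below 0.1 and logarithmic above. Black bars are the mean and SD over clones, cut at 0 where the SD exceeds the mean, and the grey band is the level of 3 counts. Smo sits above 100 CPM in every clone, and Shh and Ihh sit around or below the grey band, apart from Ihh in clone 1.

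The ligand genes were the lowest of the 9. Shh, which patterns the limb, neural tube and gut, had 0, 2 and 0 counts in clones 1, 2 and 3, so that no clone exceeded the limit of 3 counts. Exons of genes on the opposite strand cover 28.3% of the Shh exons, and the strand setting of the counting is not stated, so even these 2 counts are uncertain. Ihh, the ligand of maturing cartilage, had 6, 1 and 0 counts. Only clone 1, at 0.241 CPM (95% exact Poisson interval 0.0886 to 0.526, counting error only), was above the limit, and its interval reached below it. Without clone 1, the mean of Ihh fell from 0.0953 to 0.0222 CPM. Of the 6 cartilage markers, Matn1 with 6, 2 and 0 counts and Col9a1 with 111, 54 and 8 counts had the clone order of Ihh. The other 4 did not, since Col2a1 was at 735, 487 and 724 CPM, Acan at 45.1, 45.5 and 39.8 CPM, Col10a1 at 33.2, 14.8 and 25.5 CPM and Sox9 at 9.26, 12.8 and 10.7 CPM. The part of cartilage-like cells in the Ihh counts was not tested. Dhh, the third ligand gene, was added after its values were seen, and it had 25, 6 and 11 counts, or 0.569 ± 0.388 CPM (SD, n = 3). Dhh was thus above the counting limit in every clone, although below 1 CPM in clones 2 and 3. In clone 2 its 95% exact Poisson interval (0.0976 to 0.579 CPM) reached below that limit.

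Ptch1, the receptor, had 163, 247 and 244 counts, and its levels in the order of the clones were 6.56, 10.95 and 9.66 CPM, or 9.06 ± 2.26 CPM (SD, n = 3). Clone 1 was the low library, and 24.0% of the expressed genes had a lower mean. Hhip, a membrane-bound antagonist that captures the ligand, had 22, 42 and 35 counts, or 0.885, 1.86 and 1.39 CPM, and it again was lowest in clone 1 and highest in clone 2. Its mean was 1.38 ± 0.489 CPM, and clone 1 alone was below 1 CPM. Smo had 3156, 2776 and 3008 counts, or 127, 123 and 119 CPM, with a mean of 123 ± 3.97 CPM that exceeded 88.1% of the expressed genes. Smo was the steadiest of the 9 genes, with 1.07-fold between its highest and its lowest clone.

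The start regions of the receptor, the antagonist and the transducer are shown because these 3 genes span the steps of the pathway between ligand and GLI proteins and range from about the threshold of expression to the top of the list. RefSeq start windows on GRCm38.p6, 250 bases before to 50 bases after a transcription start, matched 7 of the 9 genes (all but Shh and Gli1). CpG dinucleotides are in capitals, and each sequence is printed 5′ to 3′ on the strand of its gene. The window of Ptch1 is chr13:63565686-63565985 (minus strand), that of Hhip chr8:80057959-80058258 (minus strand) and that of Smo chr6:29735247-29735546 (plus strand).
Ptch1: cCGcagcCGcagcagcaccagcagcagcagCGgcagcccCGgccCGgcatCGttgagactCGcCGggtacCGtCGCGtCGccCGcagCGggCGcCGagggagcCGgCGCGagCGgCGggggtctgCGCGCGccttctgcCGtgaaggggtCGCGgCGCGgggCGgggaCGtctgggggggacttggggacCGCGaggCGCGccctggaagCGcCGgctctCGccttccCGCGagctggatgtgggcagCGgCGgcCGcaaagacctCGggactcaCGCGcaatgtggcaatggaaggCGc
Hhip: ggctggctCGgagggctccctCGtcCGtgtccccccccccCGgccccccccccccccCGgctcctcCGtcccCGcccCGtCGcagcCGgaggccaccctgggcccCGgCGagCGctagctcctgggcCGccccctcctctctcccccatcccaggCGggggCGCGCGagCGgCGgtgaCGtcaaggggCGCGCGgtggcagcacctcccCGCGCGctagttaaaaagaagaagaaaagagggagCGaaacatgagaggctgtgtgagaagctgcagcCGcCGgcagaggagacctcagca
Smo: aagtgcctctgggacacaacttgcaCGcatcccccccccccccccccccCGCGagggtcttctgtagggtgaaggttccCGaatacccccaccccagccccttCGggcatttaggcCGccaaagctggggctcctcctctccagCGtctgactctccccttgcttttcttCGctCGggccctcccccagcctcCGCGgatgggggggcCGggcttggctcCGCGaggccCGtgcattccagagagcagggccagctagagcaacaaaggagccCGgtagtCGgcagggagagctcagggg
The window of Ptch1 held 47 CpG, more than 98.6% of the 32851 windows in the table, that of Hhip held 30 (88.3%) and that of Smo 17 (68.6%), where the median window held 7. The Ptch1 window lies inside the annotated gene, which runs on GRCm38 from 63508328 to 63573598 on chromosome 13. The letters TGGGTGGTC, a GLI binding motif, were searched on both strands (GACCACCCA on the other). They occurred in 0 of the 7 windows, in 0.253% of all windows and, with up to 1 mismatch, in 0 of the 7 and 6.74% of all windows. This says only that these letters are absent from windows of 300 bases.

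Sufu, the inhibitor that holds GLI proteins in the cytoplasm, had 857, 798 and 959 counts. In CPM it stood at 34.5, 35.4 and 38.0, with a mean of 36.0 ± 1.80 (SD, n = 3), above 59.9% of the expressed genes. Gli3, the main repressor of the family, had 1169, 972 and 1213 counts, or 47.1, 43.1 and 48.0 CPM. Its mean of 46.1 ± 2.60 CPM exceeded 67.0% of the expressed genes. Gli2, the main activator, had 290, 262 and 401 counts, or 11.7, 11.6 and 15.9 CPM (13.1 ± 2.44), and clone 3 was the high library while the other two were nearly equal. Gli1, an activator that is transcribed in response to the signal, had 14, 8 and 22 counts, or 0.563, 0.355 and 0.871 CPM (0.596 ± 0.260). The 95% exact Poisson intervals of Gli1 in the order of the clones were 0.308 to 0.945, 0.153 to 0.699 and 0.546 to 1.32 CPM, so that each overlapped the others and all lay above the level of 3 counts. In clone 2, however, the interval of Gli1 began below 0.164 CPM, the upper end of the same kind of interval for a count of 0.

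Levels of different genes can be compared only per length. Per kb of all annotated exons, Smo was highest at 21.9 ± 0.706 CPM per kb (SD, n = 3), followed by Gli3 at 4.80 ± 0.272, Sufu at 4.67 ± 0.235, Gli2 at 1.90 ± 0.356, Ptch1 at 0.639 ± 0.159, Hhip at 0.152 ± 0.0538 and Gli1 at 0.119 ± 0.0520. Smo was above Gli3, Sufu above Gli2, Gli2 above Ptch1 and Ptch1 above Hhip with no overlap between the clones. Gli3 and Sufu were not separated, since their ranges overlapped and Gli3 was higher in 2 of 3 clones, and neither were Hhip and Gli1, where Hhip was higher in 1 of 3 clones. Of the 36 pairs of genes, 33 stood in the same order in every clone. The place of Sufu depends on the length: its exons cover 7691 bp, but the transcript with the longest coding sequence has 1747 nt, and per kb of such transcripts Sufu was at 20.6 ± 1.03 CPM per kb against 5.64 ± 0.319 for Gli3, now above it in every clone.

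**Figure D2:**
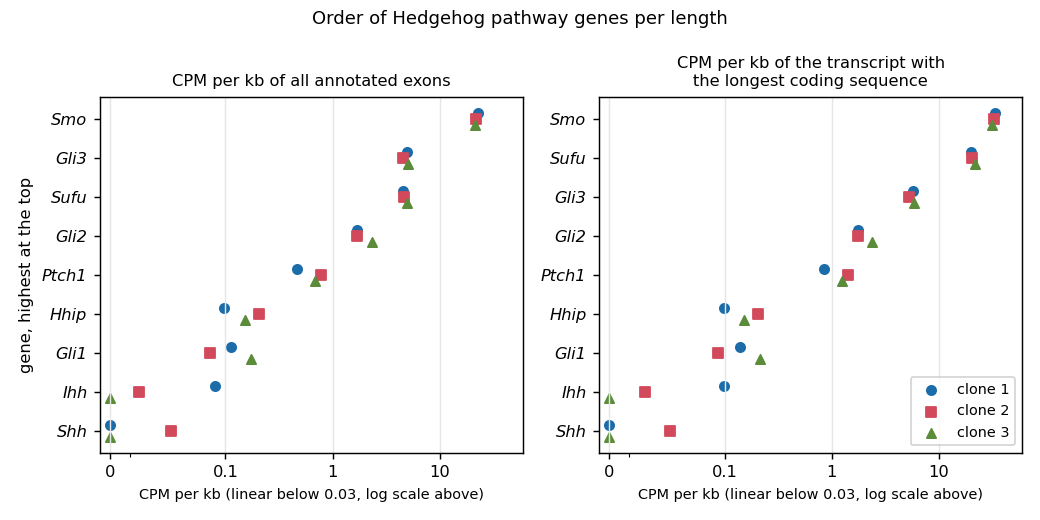
CPM per kb of each gene in each clone, with genes ordered by their mean from top to bottom, per kb of all annotated exons (left) and per kb of the transcript that holds the longest coding sequence (right). Axes are linear below 0.03 and logarithmic above. Smo leads in both panels, and only Sufu and Gli3 trade places.

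Per kb of exon, there were 36.1 ± 11.1 Smo counts for each Ptch1 count (SD, n = 3), and this ratio was 48.9, 28.4 and 31.1 in the clones in their order. The low Ptch1 level of clone 1 thus gave it the highest ratio. The ratio of Gli3 to Gli2 was 2.89, 2.66 and 2.17, whereas that of Gli3 to Gli1 was 43.5, 63.3 and 28.7. Within the Gli family, Gli3 took 70.6% ± 3.29 of the counts per kb of exon, Gli2 27.7% ± 2.84 and Gli1 1.71% ± 0.597 (SD, n = 3), and the order Gli3, Gli2, Gli1 held in every clone. In counts not divided by length, the share of Gli3 was 79.4% (95% Wilson interval 77.2 to 81.4) in clone 1, 78.3% (75.9 to 80.5) for clone 2 and, for clone 3, 74.1% (72.0 to 76.2). The interval of clone 3 lay below that of clone 1, and Gli2 took more in clone 3, at 24.5% (22.5 to 26.7) against 19.7% (17.7 to 21.8) in clone 1. These intervals cover counting error only.

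**Figure D3:**
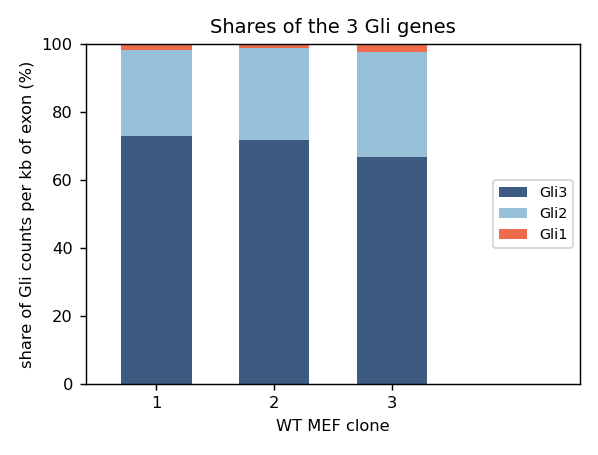
Share of Gli1, Gli2 and Gli3 in the counts per kb of annotated exon, 1 bar per WT MEF clone, on an axis from 0 to 100%. Gli3 takes 66.8% to 73.0% and Gli1 no more than 2.33%.

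To see whether the clones differed beyond counting error, the 3 counts of each gene with at least 10 counts in every clone were compared with the library sizes by a Pearson chi-square test, adjusted over all 12218 genes tested by the Benjamini-Hochberg method. This compares libraries and not conditions, and with 1 library per clone a clone cannot be told apart from its culture or its library. Ptch1, Hhip and Gli2 passed at an adjusted p-value under 0.05, that is 3 of the 6 pathway genes tested, where 62.5% of all tested genes passed. With DESeq2 size factors 4 of the 6 passed (62.4% of all genes) and with total counts 5 of the 6 (63.9%), so how the pathway genes compare with the whole table depends on the scaling. Shh, Ihh and Gli1 were left out by the minimum of 10 counts per clone. With no minimum, Ihh passed (adjusted p = 0.0315) and Shh (adjusted p = 0.184) and Gli1 (adjusted p = 0.125) did not, although a chi-square test is only approximate at so few counts.

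Ptch1 differed 1.67-fold between its highest and lowest clone (adjusted p = 3.98e-06), a wider range than that of 84.8% of the tested genes. Hhip differed 2.10-fold (adjusted p = 0.0271), and it was the only 1 of the 6 that passed with a range of 2-fold or more, as did 7.93% of all tested genes. Both were lowest in clone 1 and highest in clone 2, an order found with a passing test in 17.1% of all tested genes. Called genes with their lowest level in clone 1 were 27.1% of those tested. Without clone 1, neither Ptch1 (1.13-fold, adjusted p = 0.308) nor Hhip (1.34-fold, adjusted p = 0.350) passed, and without clone 2 Hhip did not pass either (adjusted p = 0.170). The proliferation genes had the same order of clones, with all 6 lowest in clone 1 and highest in clone 2, and the macrophage genes were highest in clone 2 in 8 of 8 cases. Their part in the levels of Ptch1 and Hhip was not tested.

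Gli2 differed 1.37-fold (adjusted p = 3.80e-05), and this rested on clone 3, without which Gli2 did not pass (adjusted p = 0.970). Gli3 (1.11-fold, adjusted p = 0.0510), Smo (1.07-fold, adjusted p = 0.0631) and Sufu (1.10-fold, adjusted p = 0.146) did not pass, and the ranges of Smo and Sufu were below the median range of 1.24-fold over all tested genes, as was that of Gli3. When the test statistic was divided by 8.46, so that a gene with the median statistic counts as unchanged, 0 of the 6 genes passed (chi-square test, and also 0 at an unadjusted p under 0.05), with 13.1% of all genes still called. The divisor was the same at every count level, although spread between clones raises the statistic less at low counts. A weakly counted gene such as Hhip thus had little room to pass, and this result does not show that its spread was typical.

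**Figure D4:**
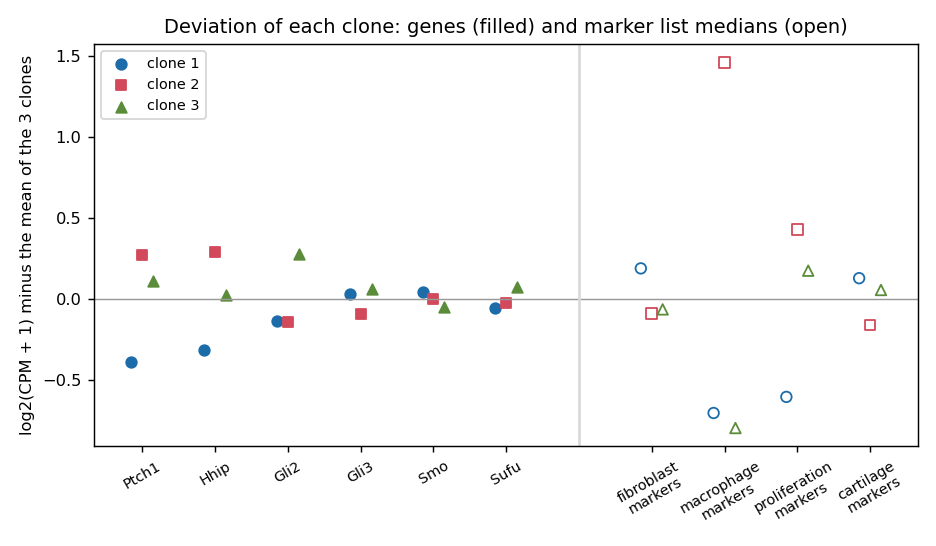
Difference of each clone from the mean of the 3 clones, as log2(CPM + 1), for the 6 pathway genes tested (filled symbols) and for the median of marker lists (open symbols). Ptch1 and Hhip are lowest in clone 1, Gli2 is highest in clone 3, and Gli3, Smo and Sufu stay near 0, while the macrophage markers reach 1.46 in clone 2. Adding 1 to the CPM narrows the differences of genes at low levels. Hhip therefore spreads less here than Ptch1, although its range in CPM was wider (2.10-fold against 1.67-fold).

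The other genes of the pathway were taken in lists by role. Of 7 genes for making and releasing the ligand, 3 were at 1 CPM or more in every clone, and all 3 of these differed between libraries, where 62.5% of all tested genes did. They were Hhat, which attaches palmitate to the ligand, at 20.2 ± 1.82 CPM (SD, n = 3), and the secreted carriers Scube3 at 4.48 ± 1.27 CPM and Scube1 at 2.17 ± 0.788 CPM. Scube1 had 75, 33 and 51 counts, a range of 2.06-fold (adjusted p = 0.00243), and all 3 genes were lowest in clone 2. How many of all tested genes were lowest in clone 2 was not counted. Disp1, which releases the ligand from the cells that make it, was listed with 0 counts in every clone, and whether the annotation used for counting covers its exons is not given in the sources used here.

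Of 5 other receptors and co-receptors, 4 reached 1 CPM in every clone. Boc, a co-receptor, stood at 43.2 ± 5.83 CPM, the endocytic receptor Lrp2 at 23.9 ± 8.67 CPM and the co-receptor Cdon at 22.2 ± 0.551 CPM (SD, n = 3). All 4 were lowest in clone 1 and highest in clone 2. Of all tested genes, 17.1% had this order and also passed the test. How many had this order whether or not they passed was not counted. Cdon did not pass the chi-square test (1.05-fold, adjusted p = 0.767), so only the other 3 can be set beside the 17.1%. The 3 that passed, where 62.5% of all tested genes did, had 419, 757 and 535 counts for Lrp2 (1.99-fold, adjusted p = 4.81e-32), 971, 1124 and 1025 counts for Boc (1.28-fold, adjusted p = 3.80e-08) and 229, 331 and 325 counts for Gas1 (1.59-fold, adjusted p = 8.49e-07), the last named after its values were seen. The part of the macrophage and proliferation genes, which were also highest in clone 2, was again not tested.

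The genes of the cilium and of the enzymes that act on GLI proteins were expressed throughout. All 12 cilium genes reached 1 CPM in every clone. Those with the highest CPM, which is not an order per length, were Tulp3, which brings membrane proteins into the cilium, at 77.3 ± 7.57 CPM, Evc2, a partner of SMO at the base of the cilium, at 73.0 ± 4.68 CPM and the negative regulator Rab23 at 49.2 ± 4.70 CPM. Of these 12 genes, 9 differed between libraries, near the 62.5% of all tested genes, and none by 2-fold. All 14 genes of kinases and ubiquitin ligases that act on GLI proteins or SMO were at 1 CPM or more too. By CPM, again not per length, the highest were the protein kinase A subunit gene Prkar1a at 263 ± 7.90 CPM, the casein kinase gene Csnk1a1 at 142 ± 9.75 CPM and Spop, an adaptor for the degradation of GLI proteins, at 105 ± 2.10 CPM. Of these 14, 10 differed between libraries, again near 62.5%, and the median range was 1.10-fold where that of all tested genes was 1.24-fold.

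Of 9 genes that are targets of the pathway in mesenchyme, 7 reached 1 CPM in every clone, and the median of the 9 mean levels was 8.72 CPM. The highest by CPM were the cyclin genes Ccnd2 at 646 ± 30.7 CPM and Ccnd1 at 229 ± 31.5 CPM, and Grem1, an antagonist of BMP ligands, at 92.9 ± 7.26 CPM (SD, n = 3), all of which respond to many other signals. Of the 8 genes tested, 5 differed between libraries, the same share as the 62.5% of all tested genes, and none by 2-fold. Of 4 genes that the pathway controls in the ventral neural tube, none reached 1 CPM. Nkx2-2 and Olig2 had 0 counts in every clone, Foxa2 had 0, 1 and 0, and Nkx6-1 had 11, 15 and 15 counts.

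**Figure D5:**
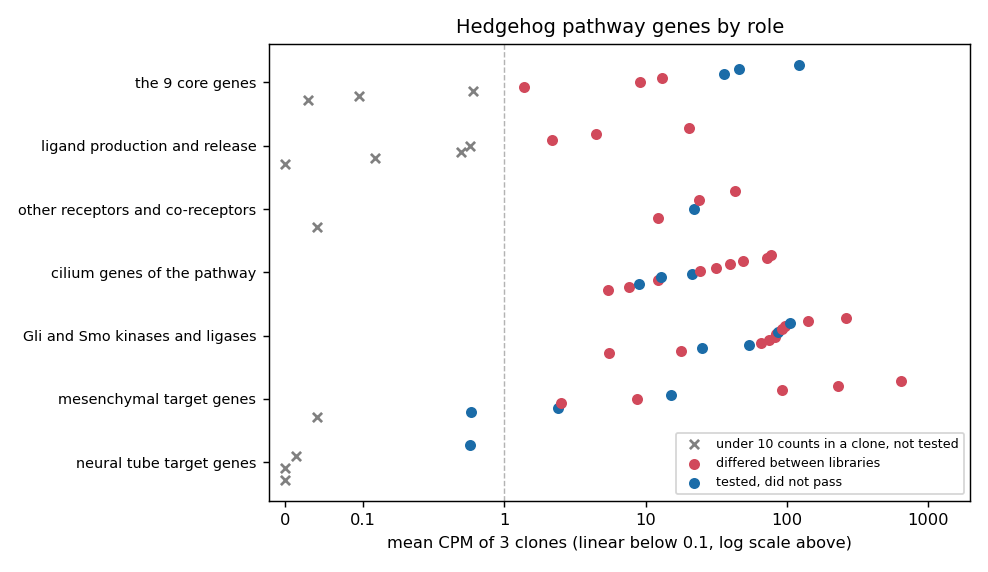
Mean CPM over the 3 clones of each gene, grouped by role, on an axis that is linear below 0.1 and logarithmic above, with 1 CPM as a dashed line. All cilium genes and all kinase and ligase genes lie to the right of the line, whereas all 4 neural tube genes and 4 of the 7 ligand genes lie to the left, and red marks genes that differed between libraries.

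Sequence shared with other genes was counted in transcripts, not in reads. The 86-nt stretches in the transcripts of each gene were matched, with up to 2 mismatches, to transcripts of genes other than the 9. The share that matched was 20.2% for Shh, 3.70% for Smo, 3.60% for Gli1, 0.992% for Hhip, 0.991% for Gli3 and 0.224% for Ptch1. No stretch of Ihh, Sufu or Gli2 matched. Between the 9 genes only identical stretches were compared, and none was common to any pair. Matches with mismatches between the 9 genes were not searched. Exons on the opposite strand, of Arhgap9 and Gm47200, covered 6.55% of the exon length of Gli1 on chromosome 10 (127329882 to 127341974). For Gli3 this share was 1.96% and for Hhip 1.93%, and for the genes other than these and Shh it was 0%. The genes matched by the stretches of Shh, Gli1, Gli3 and Hhip were such overlapping genes on the opposite strand. For these genes the matches and the shared exons are thus not separate limits.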

How the data were processed

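Polyadenylated RNA of 3 WT MEF clones was sequenced by the authors as 86-nt single-end reads. Per the labels and the methods, reads were aligned with TopHat 2.0.0 (Bowtie 0.12.7, Samtools 0.1.16) with 2 mismatches allowed, and HTSeq assigned them to genes. The methods name mm10 and the submitters' processing notes mm9. The annotation and strand setting are not given in the sources used here. The deposited values are raw counts per gene symbol, and no other unit was used.

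CPM were computed here with TMM library sizes (edgeR 4.0.16, R 4.3.3). Differences between libraries were tested in Python 3.11.15 (scipy 1.17.1) by Pearson chi-square (2 degrees of freedom), adjusted over all genes with at least 10 counts per clone. Counts of 12153 genes were simulated with counting error only and no spread between clones. There, 187 of 199 tested genes changed 2-fold were called, and 10 unchanged ones. The real libraries spread more than this, so these numbers are not the error rate of the test on them. p-values measure only the spread between libraries. Lengths and positions are from GENCODE M21 (GRCm38), which may differ from the annotation counted. Stretches were matched with bwa 0.7.19. Genes absent from lists by symbol were sought by synonym (100 of 101 found).

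The pathway genes and lists were chosen with earlier results of these data known. Named were all 9 genes and, per list, the 3 highest, those with 3 or fewer counts in every clone and those called with a 2-fold range. 1 gene under this rule is not reported here. Alternatives were DESeq2 1.42.0 size factors, total counts, other thresholds and lengths, and leaving out each clone.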

Additional observations from a re-analysis of the deposited data

How the results depend on the processing

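Levels moved by less than 1 SD over clones under DESeq2 size factors or total counts. Without clone 1 the mean of Ihh was 0.0222 instead of 0.0953 CPM, and without clone 2 that of Shh was 0 instead of 0.0296 CPM. The 5 genes at 1 CPM or more in every clone became 6 at 0.5 CPM or without clone 1 and 7 at more than 3 counts. In the main test 3 of the 6 pathway genes tested differed between libraries, where 62.5% of all tested genes did. With DESeq2 size factors it was 4 of 6 (Smo added), against 62.4%. Total counts gave 5 of 6 (Sufu and Gli3 added), against 63.9%. With no filter on low counts it was 4 of 9 (Ihh added), against 48.1%. Without clone 1, 2 or 3 it was 2 of 6, 3 of 7 and 2 of 6, against 31.7%, 45.4% and 53%. With the statistic scaled to its median over all genes it was 0 of 6, where 1606 genes remained called instead of 7642. Without clone 1, 3893 genes were called. Smo also passed without clone 2 and Gli3 without clone 1. In counts not divided by length, the mean shares of Gli1, Gli2 and Gli3 were 0.980%, 21.8% and 77.3%. No paired analysis was possible because the libraries belong to 1 group. Depth limits Shh, Ihh and Gli1, which had fewer than 10 counts in at least 1 clone, and with no treated library a level of Ptch1, Hhip or Gli1 has no reference here.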
